A study of Danio rerio with 6 samples.

Results

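Skipped exons whose length is a multiple of 3 bases were examined in whole zebrafish embryos that carry a mutation in rbm24a. They were found by length alone, as the rows of the deposited skipped-exon sheet in which exon end minus exon start can be divided by 3, and they made up 1105 of 1816 rows. The 1105 rows held 1053 different exons in 819 genes, because the same exon was listed again where it was paired with other neighbours. The remaining 711 rows, in 573 genes, had lengths that shift the reading frame. Whether an exon is coding was not annotated in the sheet, so "in frame" refers to length only.

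Rbm24a mutants of the AB strain at 33 hours post fertilization (3 libraries) were set against wild-type AB embryos of the same age (3 libraries). The mutation is a TALEN-induced deletion of 8 bp, TALENs being engineered DNA-cutting enzymes. The labels name another exon for it in each mutant sample, and the exon is therefore left out here. The samples are called independent without mention of separate clutches, so p-values measure the spread between these samples. Total gene counts were between 13905380 and 16043155 in mutant libraries and between 13242789 and 14416794 in wild-type libraries. Of 24 marker genes listed for tissues of the embryo, 23 were found and 22 were at 1 FPKM or more in every library. Rbm24a had 288, 514 and 366 reads in mutant embryos, against 204, 247 and 211 in wild-type embryos, a log2 change of 0.77 (edgeR, adjusted p = 0.00571, but 0.0711 with limma on log2(FPKM + 1)), and so small a deletion does not let this level check the labels. Leaving out mutant replicate 2 moved the counts of called genes most, and those counts are given with the host genes.

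Rbm24 proteins bind RNA and are known as regulators of splicing and mRNA stability in heart and skeletal muscle. A coding cassette exon that keeps the frame, and holds no stop codon, adds or removes a stretch of amino acids. It leaves the downstream protein sequence as it was, whereas an exon of another length shifts the frame when it is skipped. Very short in-frame exons, called microexons, are a known feature of neuronal and muscle transcripts. The measure used here is the inclusion level, the length-corrected share of reads that contain the exon, from 0 (always skipped) to 1 (always included). Inclusion counts appear to hold reads inside the exon as well as junction reads, since the length correction grows with exon length. A difference is given in points, as 100 times the mutant mean minus the wild-type mean.

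In-frame exons were short. Their median length was 81 bases, with the middle 50% of rows between 48 and 123 bases and the whole range between 3 and 7170, against a median of 97 bases for frame-shifting exons. Exons of at most 27 bases made up 104 in-frame rows and 25 frame-shifting rows. The most common length was 63 bases, with 35 rows, followed by 48 and 69 bases with 31 rows each. The gaps between in-frame exons and the neighbours they were paired with had median lengths of 2116 bases upstream and 2232 bases downstream. Beside frame-shifting exons these medians were 1561 and 1777 bases. Such a gap can hold other exons, and an exon listed with several neighbours counted once per row.

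**Figure D1:**
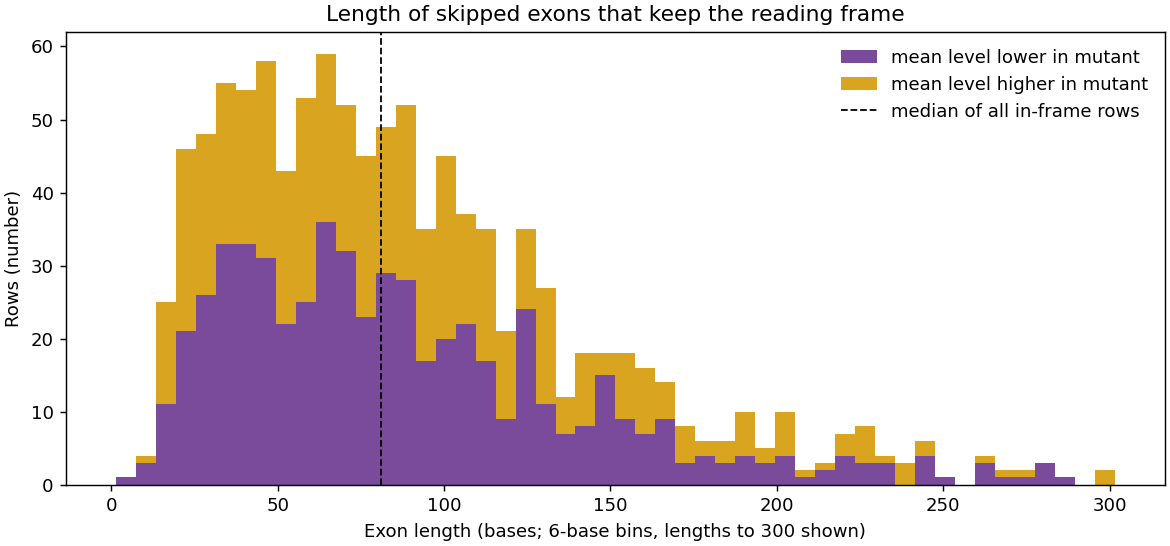
The number of in-frame rows (vertical axis) is plotted by exon length in bases (horizontal axis, 6-base bins, lengths to 300 shown), with rows whose mean level was lower in the mutant in purple and higher in yellow. Both colours cover the same range of lengths, around the median of 81 bases marked by the dashed line.

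Both directions were common. The mean level was lower in the mutant in 598 of 1105 in-frame rows and higher in 507, so 54.1% were lower, against 54.9% of all 1816 rows. A lower row occurred in 476 genes, a higher row in 428 and both in 85. The sheet holds events that the authors selected on this same contrast, with an FDR of at most 0.0497 among in-frame rows in the authors' deposited table. The share of exons that differ between the groups is therefore set by that selection, and the comparisons between groups describe the selected exons. Whole embryos were used, so a level in 1 tissue cannot be told apart from a different share of that tissue's RNA.

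Read support decided how much of the list could be read. At least 20 reads, inclusion and skipping together, were available in every library for 387 in-frame rows (35.0%), which held 378 exons in 305 genes. This minimum is not one of junction reads alone. Another 237 rows had a library with no reads at all, and the median row had 108 reads over the 6 libraries. A difference of 50 points or more was listed in 141 rows, of which 82 were lower and 59 higher, with a median of 11 reads in all. None of those 141 rows was shown to have the 20 reads per library. Apart from nasp and rows of matn4 and EPB41L2, they are therefore not described further.

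Among the 387 rows with enough reads, the 3 mutant levels lay wholly below the 3 wild-type levels in 90 rows and wholly above them in 56. Together these 146 rows were 37.7% of the in-frame rows, against 39.2% of all 688 rows with enough reads. Over all 688 rows the share was 24.6% below and 14.7% above. In the other 241 in-frame rows the levels overlapped. The median difference, whatever its sign, was 6.73 points for in-frame rows and 5.87 points for frame-shifting rows.

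The levels of in-frame exons were spread over the whole scale. With enough reads, the median level of in-frame exons was 0.561 in mutant and 0.590 in wild-type embryos. Frame-shifting exons stood higher, at 0.787 in mutant and 0.793 in wild-type embryos. The wild-type mean was between 0.1 and 0.9 in 217 of the 387 in-frame rows and in 126 of 301 frame-shifting rows. It was over 0.9 in 113 in-frame rows, of which 39 were wholly lower and 4 wholly higher in the mutant, and under 0.1 in 57, of which 6 were wholly lower and 16 wholly higher. Among frame-shifting rows, 37 of 122 over 0.9 were wholly lower and 11 wholly higher, and 11 of 53 under 0.1 were wholly lower and 17 wholly higher. A level near an end of the scale has little room to differ further that way. The rows were also grouped by the wild-type mean, which is itself part of the difference. The directions in these groups are therefore not independent of the grouping.

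**Figure D2:**
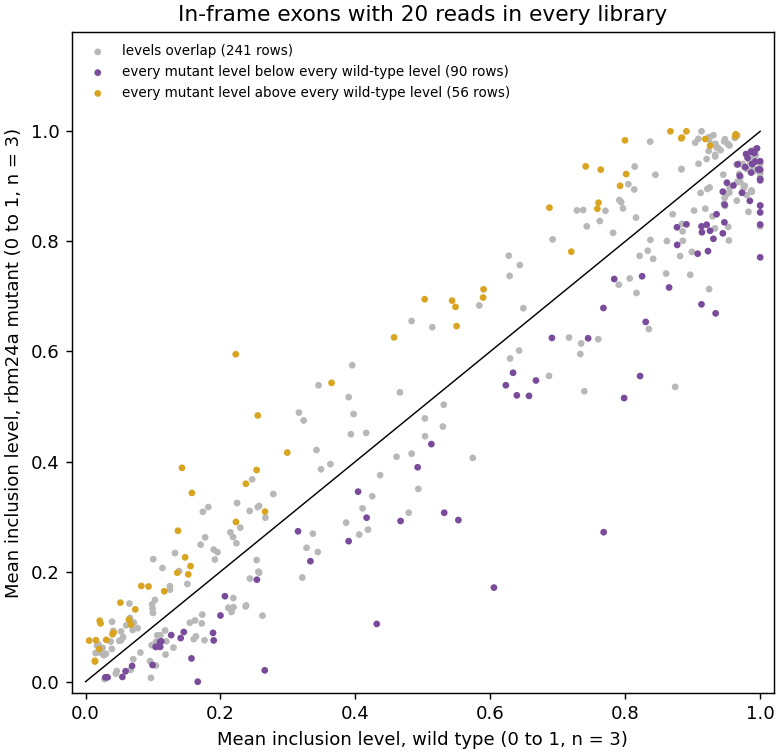
The mean inclusion level in rbm24a mutants (vertical axis, 0 to 1) is plotted against that in wild type (horizontal axis, 0 to 1) for the 387 in-frame rows with 20 reads in every library, n = 3 per group, with the diagonal as the line of equal levels. The 90 rows in purple had every mutant level below every wild-type level, the 56 in yellow the reverse, and most points lie close to the diagonal.

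Tested with limma on logit levels, with Benjamini-Hochberg adjustment over all 688 rows and a threshold of 0.05, 24 of the 387 in-frame rows were called (6.2%), against 7.41% of all rows. Of these, 16 fell and 8 rose, where all rows were called lower at 5.09% and higher at 2.33%. Exons that fell lay in cyba, sat2b, anxa13l, st7l, terfa, slc13a4, cyt1l, kifc1, scel, taf6, fbxl6, kat7b, tspan4a and erh. Exons that rose lay in hrsp12, taz, skiv2l, larp1b, slbp, usp25 and srrd. The number of calls depended on how levels near 0 and 1 were treated, and was 11 with levels clipped at 0.05. A quasi-binomial model on the reads gave 0 calls and left 97 rows with an unadjusted p under 0.05. That model also weighs levels by their reads and takes the spread from each row alone. Its count therefore does not single out the levels near 0 and 1. With limma, leaving out 1 level at a time gave between 10 and 26 calls.

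The largest decrease with enough reads was in matn4, which encodes matrilin 4, a protein of the extracellular matrix. Its 123-base exon on chromosome 6, at 52826564 to 52826686 (GRCz11), had levels of 0.223, 0.164 and 0.428 in mutant embryos, against 0.646, 0.894 and 0.764 in wild-type embryos. The groups did not overlap, and the exon was mostly skipped in the mutant and mostly included in wild type. The difference was -49.6 points (limma, adjusted p = 0.0510), just outside the threshold. The gene as a whole was at 42.1 ± 7.58 FPKM in mutant and 37.8 ± 0.294 FPKM in wild-type embryos (SD, n = 3 each) and was not called.

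Matn4 also had the most in-frame rows of any gene, with 14 rows over 7 exons, of which 12 were lower and 2 higher. Every one of these exons was 123 bases long. Of the 4 rows with enough reads, the most downstream exon had levels of 0.936, 0.943 and 0.943 in mutant embryos, against 1, 0.964 and 1 in wild-type embryos, and the groups did not overlap. The other 2 exons with enough reads had overlapping levels, with differences of -7.63 and -10.8 points. The exon with the largest decrease was also listed with other neighbours, with fewer reads and differences of -65.9 and -52.3 points.

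Cyt1l, a type I keratin gene, had 7 in-frame rows and all were lower in the mutant. Its 36-base exon on chromosome 19, at 5440759 to 5440794, had levels of 0.151, 0.203 and 0.159 in mutant embryos, against 0.527, 0.609 and 0.680 in wild-type embryos. That is a fall of 43.4 points (limma, adjusted p = 0.0112), from between 2822 and 4977 reads per library. An 81-base form of the same exon was at 0.540, 0.561 and 0.565 in mutant embryos, against 0.774, 0.816 and 0.876 in wild-type embryos (adjusted p = 0.0367 with limma). Keratin genes of this kind have near-identical neighbouring copies, so how reads were shared among copies is uncertain. Total expression was 1187 ± 42.2 FPKM in mutant and 1107 ± 70.1 FPKM in wild-type embryos (SD, n = 3 each).

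Several other decreases were clear of the wild-type range. In slc13a4, a sulfate transporter gene, a 75-base exon was at 0.708, 0.685 and 0.615 in mutant embryos, against 0.949, 0.932 and 0.921 in wild-type embryos, a fall of 26.5 points (limma, adjusted p = 0.0109). In fbxl6, an F-box protein gene, a 183-base exon was nearly always skipped in mutant embryos, at 0, 0.050 and 0.012, against 0.395, 0.195 and 0.207 in wild-type embryos (limma, adjusted p = 0.0273). The groups were apart in both genes. The 180-base exon of srsf6a, which encodes an SR-family splicing factor, had a difference of -32.7 points, with levels of 0.103, 0.121 and 0.091 in mutant and 0.896, 0.129 and 0.270 in wild-type embryos. That size comes mainly from 1 wild-type level, and it was not called (limma, adjusted p = 0.236). The other exons of this set, in cyt1l, GTSF1 (1 of many), cyba and depdc5, had differences between -28.3 and -22.7 points.

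The largest increase with enough reads was in ktn1, which encodes kinectin, a membrane protein that binds kinesin. Its 87-base exon on chromosome 17, at 43866076 to 43866162, had levels of 0.744, 0.567 and 0.474 in mutant embryos, against 0.232, 0.269 and 0.167 in wild-type embryos. The difference was 37.2 points (limma, adjusted p = 0.0510). A second in-frame exon of the same gene, of 84 bases, differed the other way, at 0.109, 0.088 and 0.069 in mutant embryos and 0.148, 0.230 and 0.189 in wild-type embryos. Ktn1 transcripts fell to 13.1 ± 0.738 FPKM in mutants, against 22.2 ± 2.68 FPKM in wild type (SD, n = 3 each), or -0.71 on the log2 scale (edgeR, adjusted p = 0.000641).

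Among the other increases, the 75-base exon of srek1, a splicing regulator gene, was at 0.357, 0.296 and 0.513 in mutant embryos, against 0.022, 0.214 and 0.193 in wild-type embryos. The groups did not overlap, and the exon was not called (limma, adjusted p = 0.181). The 99-base exon of srrd was at 1, 0.951 and 1 in mutant embryos and 0.774, 0.793 and 0.832 in wild-type embryos, a rise of 18.4 points (limma, adjusted p = 0.0273). The other exons of this set, in mrpl30, EPB41L2, zgc:92287, cars, mon2 and sulf1, had differences between 16.8 and 19.5 points.

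**Figure D3:**
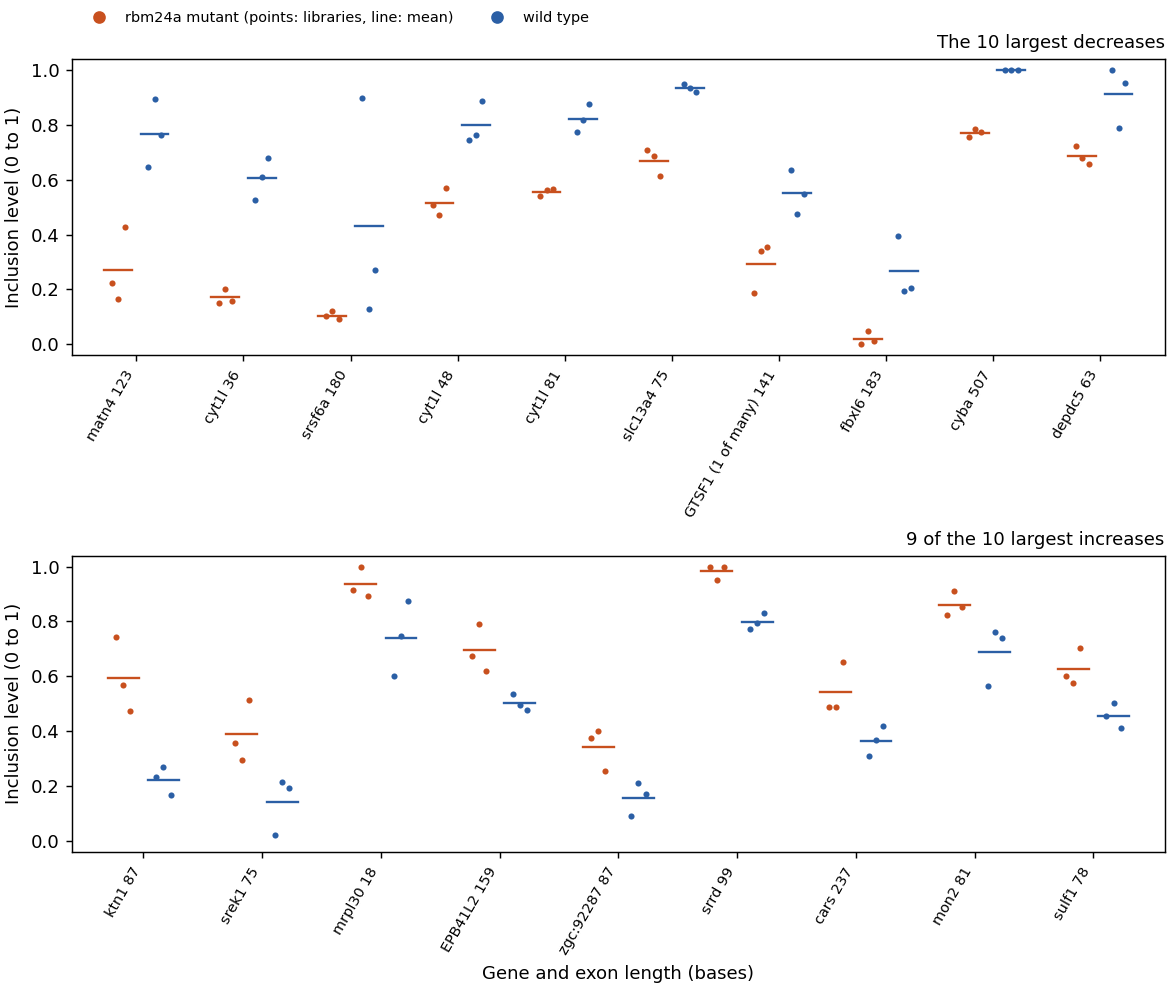
Inclusion levels (vertical axes, 0 to 1) of the 10 in-frame exons with the largest decreases (upper panel) and 9 of the 10 with the largest increases (lower panel), with a point for each library, a line for the mean, mutants in orange and wild type in blue. The exons were chosen for groups that do not overlap, and the spread of srsf6a in wild type, from 0.129 to 0.896, is the widest shown.

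EPB41L2, which encodes a band 4.1 protein that links membranes to the cytoskeleton, had in-frame exons with differences in both directions. It had 11 in-frame rows over 6 exons. Its 159-base exon was at 0.675, 0.792 and 0.618 in mutant embryos, against 0.534, 0.496 and 0.478 in wild-type embryos, and its 54-base exon was at 0.748, 0.734 and 0.657 in mutants, against 0.640, 0.573 and 0.557 in wild type. Its 60-base exon went the other way, at 0.588, 0.729 and 0.644 in mutants, against 0.845, 0.813 and 0.833 in wild type. None of the 3 passed the limma test, with adjusted p between 0.0879 and 0.199. The direction of the 60-base exon depended on the neighbours it was paired with. In another pairing the 60-base exon was at 0.797, 0.720 and 0.856 in mutants and 0.416, 0.766 and 0.528 in wild type, 22.1 points higher in the mutant with overlapping groups and 18 reads in the poorest library. For the same exon, a pairing with 11 reads in the poorest library gave a difference of -11.9 points, with the groups apart. Its last pairing, at -70.8 points, had libraries without reads. The 159-base exon was also higher in its other pairing, by 10 points, and overlapped there.

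Clasp2, a gene for a microtubule plus-end protein, had 7 in-frame rows, 5 of them with enough reads and none with separate groups. Of those 5 exons, 4 were 21 to 27 bases long, and 3 of them stayed under 0.1 in the mean of both groups. In neb, the gene of the giant muscle protein nebulin, a 111-base exon was at 0.083, 0.063 and 0.082 in mutant embryos, against 0.029, 0.017 and 0.046 in wild-type embryos. A neighbouring 105-base exon had overlapping levels.

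**Figure D4:**
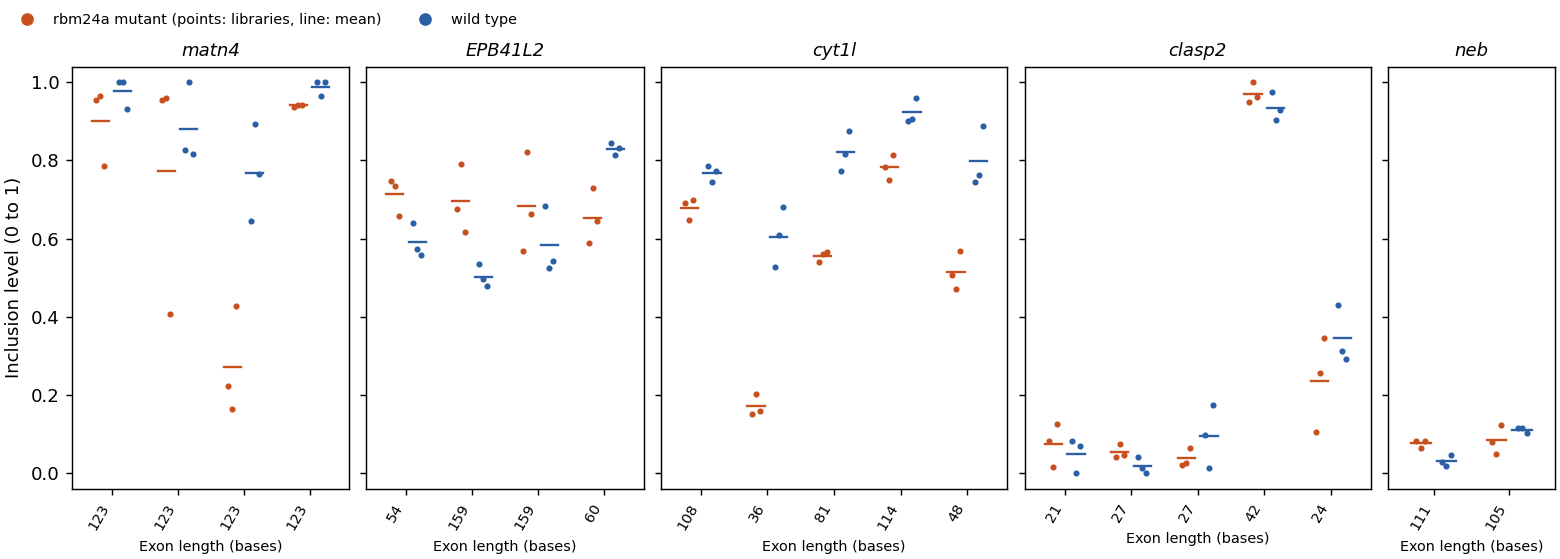
Inclusion levels (vertical axis, 0 to 1) of the in-frame rows with 20 reads in every library in the 5 genes with the most in-frame rows, by exon length in bases in genome order, with a point for each library and a line for the mean, mutants in orange and wild type in blue. All 5 plotted rows of cyt1l are lower in the mutant, while EPB41L2 has rows on both sides.

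Some exons were present in every read of 1 group. In 8 of the 387 in-frame rows the wild-type libraries held no skipping read and every mutant library held some, against 7 of 301 frame-shifting rows. The genes were cyba, sat2b, kifc1, anxa13l with 2 overlapping forms of 1 exon, scel, st7l and stm. In cyba, which encodes the p22phox subunit of NADPH oxidase, a 507-base exon was at 0.754, 0.786 and 0.773 in mutant embryos, with 153 inclusion and 10 skipping reads, and at 1 in all wild-type libraries, with 107 inclusion and 0 skipping reads. A count of 0 in those wild-type reads allows up to 2.80% of the reads (counting error only). That is a share of reads without length correction, so it cannot be set beside the inclusion levels. The 27-base exon of kifc1, a minus-end kinesin gene, was at 0.884, 0.924 and 0.750 in mutants and 1 in wild type, with 21 skipping reads in mutants and 0 in wild type.

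The reverse was rarer, in 2 of 387 in-frame rows and 1 of 301 frame-shifting rows. The mutant libraries held no skipping read in skiv2l (225 inclusion reads) and taz (111 inclusion reads), where wild-type embryos had 16 and 17 skipping reads. In taf6, a gene for a subunit of the general transcription factor TFIID, a 105-base exon was absent from all 165 mutant reads. It was at 0.066, 0.234 and 0.199 in wild-type embryos. A count of 0 in those mutant reads allows up to 1.82% of the reads, again without length correction. With enough reads, an exon absent in the mutant and present in every wild-type library occurred in 1 in-frame and 2 frame-shifting rows. No in-frame exon with enough reads was absent in wild type and present in every mutant library, against 1 frame-shifting row. With levels clipped at 0.05, the limma calls in cyba and sat2b stood, and those in kifc1, anxa13l, scel, st7l, taf6, skiv2l and taz were lost.

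Nasp, a histone chaperone gene, was chosen after its values were seen, because its mutant reads could not be parted into libraries. Its 600-base exon on chromosome 6, at 33929100 to 33929699, was at 1 in each mutant library and at 0.089, 0.1 and 0.122 in wild-type embryos, from 391, 371 and 425 reads. The difference was 89.6 points. In the most even of the possible partings the poorest mutant library had 140 reads, but other partings allowed as few as 1. Total nasp expression was 145 ± 23.0 FPKM in mutant and 168 ± 6.89 FPKM in wild-type embryos (SD, n = 3 each) and was not called (edgeR, adjusted p = 0.615).

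Rbm24a itself has an in-frame exon in the sheet, of 102 bases on chromosome 19, at 46535298 to 46535399. Its levels were 0.151, 0.071 and 0.349 in mutant embryos and 0.086, 0.060 and 0.090 in wild-type embryos, with only 13 reads in the poorest library. The groups overlapped. Of 67 in-frame rows on that chromosome, 34 had enough reads and 17 had separate groups (50%, against 39.2% of all 688 rows), 13 of them lower in the mutant. Those 13 included all 5 rows of cyt1l with enough reads, a gene whose sharing of reads among copies is uncertain. Chromosomes 2, 4, 5, 9 and 23 had higher shares of separate groups, between 52.6% and 66.7%.

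In-frame exons of at most 27 bases had 42 rows with enough reads, and 32 of these had a mean under 0.5 in mutant embryos, as did 32 in wild-type embryos. Mean levels were lower in 17 and higher in 25, with differences between -14.7 and 19.5 points. The shortest, a 15-base exon of spna2, which encodes a spectrin of the membrane skeleton, was at 0.321, 0.397 and 0.305 in mutants and 0.272, 0.243 and 0.320 in wild type, with overlapping groups. Next in length were 18-base exons of slc43a2b, exoc1, abi2b, mon2, trappc13, ash2l and mrpl30. Those of trappc13, ash2l and mrpl30 were higher in the mutant by 5.63, 7.83 and 19.5 points, with the groups apart in ash2l and mrpl30. The exons of slc43a2b, exoc1, abi2b and mon2 came first only because ties followed the order of the sheet, from the lowest difference up. That of slc43a2b, an amino acid transporter gene, was at 0.588, 0.525 and 0.445 in mutants, against 0.700, 0.613 and 0.659 in wild type, with the groups apart (limma, adjusted p = 0.199), and the exons of exoc1, abi2b and mon2 overlapped, with differences between -10.1 and 3.57 points. A 27-base exon of max, the partner of MYC proteins, was at 0.422, 0.425 and 0.379 in mutants and 0.421, 0.460 and 0.502 in wild type, and also overlapped. In ash2l, a subunit gene of histone methyltransferase complexes, an 18-base exon was at 0.232, 0.243 and 0.203 in mutants, against 0.125, 0.171 and 0.147 in wild type, with the groups apart (limma, adjusted p = 0.190).

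**Figure D5:**
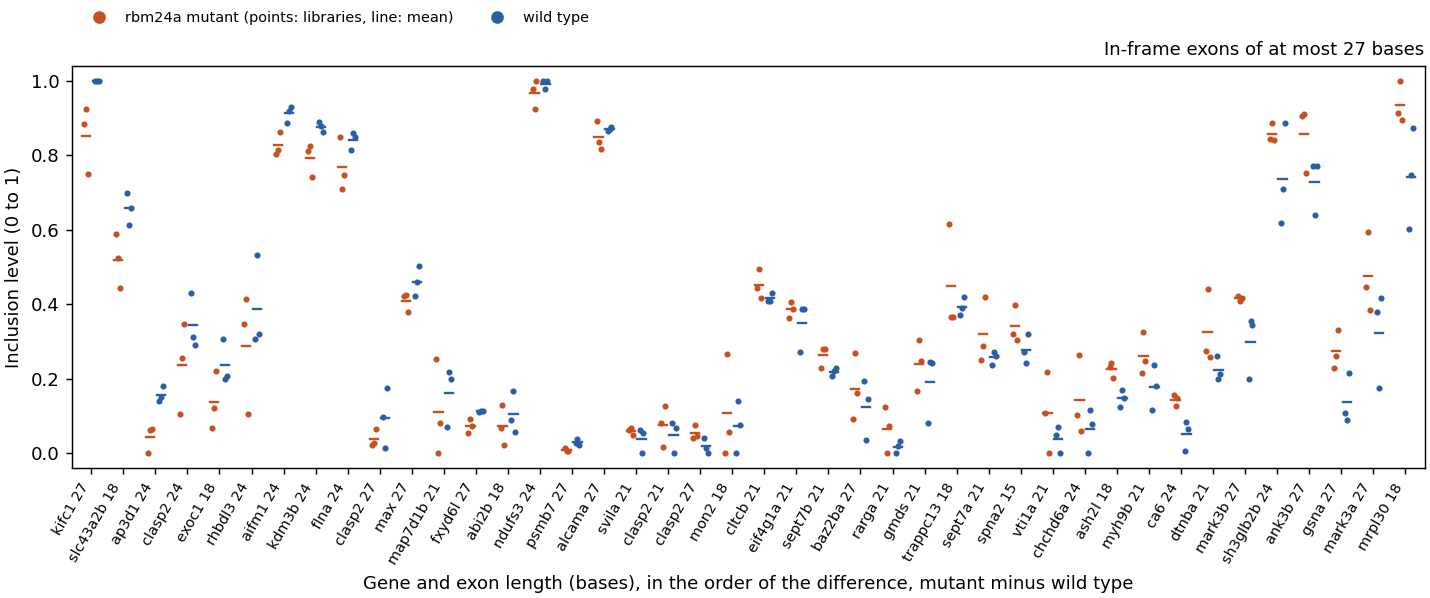
Inclusion levels (vertical axis, 0 to 1) of the 42 in-frame rows of at most 27 bases with 20 reads in every library, ordered along the horizontal axis by the difference, with a point for each library and a line for the mean, mutants in orange and wild type in blue. Levels of most of these exons lie under 0.5 in both groups, and the differences run from -14.7 points for kifc1 to 19.5 points for mrpl30.

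The 3 longest in-frame exons shown to have enough reads lay in ank3a, si:ch73-103b11.2 and plecb. The 7170-base exon of ank3a, an ankyrin gene, was at 0.325, 0.181 and 0.334 in mutant embryos and 0.194, 0.349 and 0.145 in wild-type embryos. The 3681-base exon of si:ch73-103b11.2 was at 0.092, 0.148 and 0.140 in mutants and 0.103, 0.210 and 0.336 in wild type. The 3354-base exon of plecb, a plectin gene, was at 0.238, 0.684 and 1 in mutants and 0.505, 1 and 1 in wild type. All 3 overlapped between groups. A 4896-base exon of ank2b is longer than those of si:ch73-103b11.2 and plecb and had 220, 325 and 288 reads in mutants. Its wild-type reads could not be parted into libraries, so it was not shown to have enough reads.

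Symbols that differ only in a final a or b usually mark duplicated zebrafish genes. In-frame exons occurred in both members of 30 such pairs, and 11 pairs had an exon of the same length in both. In 6 shared lengths both genes had enough reads, and the direction was the same in 4 and opposite in 2. The 45-base exon was at 0.052, 0.061 and 0.077 in mutants, against 0.135, 0.097 and 0.1 in wild type, for tpd52l2a, and at 0.061, 0.065 and 0.064, against 0.119, 0.090 and 0.103, for tpd52l2b. The groups were apart in both, with neither called (limma, adjusted p = 0.177 and 0.181). The tpd52l2a exon was also listed with other neighbours, at a difference of 10.1 points, but was not shown to have enough reads there. The 21-base exon of the septin genes sept7a and sept7b was 6.20 and 4.40 points higher in mutants, with overlapping levels in both. The 2 opposite cases were a 72-base exon of eef1da and eef1db and a 105-base exon of map7d1a and map7d1b. In their best-read rows, eef1da differed by -5.87 points with the groups apart, and eef1db by 3.13 points with overlapping levels. Map7d1a differed by 18.0 and map7d1b by -5.93 points, with overlapping levels in both.

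The members of 5 gene lists were counted. Of the sarcomere and muscle list, 20 genes had 41 in-frame rows, 17 lower and 24 higher, of which 10 rows had enough reads. The groups were apart in 2 of those 10, against 39.2% of all 688 rows, and neither was called by limma (adjusted p = 0.312 for smyd1b and 0.115 for neb). The 39-base exon of smyd1b was at 0.160, 0.117 and 0.189 in mutants, against 0.211, 0.213 and 0.196 in wild type. The 111-base exon of neb has been described above. The 285-base exon of ttn.2, a titin gene, overlapped, at 0.243, 0.134 and 0.223 in mutants and 0.234, 0.261 and 0.274 in wild type. So did the 78-base exon of fxr1, an RNA-binding protein gene, at 0.370, 0.449 and 0.284 in mutants and 0.296, 0.239 and 0.206 in wild type.

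Of the RNA processing list, 18 genes had 24 rows, of which 15 had enough reads, with 7 rows wholly lower in the mutant and 0 wholly higher, beside 24.6% and 14.7% of all 688 rows. None of the 7 was called by limma, with adjusted p between 0.0568 and 0.290. Those 7 rows were 6 exons of 6 genes, srsf5a, srsf6a, srsf7a, hnrnpm, u2af2b and rbm39a. The 450-base exon of srsf5a, an SR-family splicing factor gene, was at 0.072, 0.085 and 0.060 in mutants, against 0.115, 0.104 and 0.112 in wild type. The 39-base exon of srsf7a, of the same family, was at 0.532, 0.567 and 0.517 in mutants, against 0.599, 0.653 and 0.617 in wild type. The 36-base exon of u2af2b, a gene for a factor that binds the 3′ splice site, was at 0.200, 0.338 and 0.228 in mutants, against 0.412, 0.380 and 0.378 in wild type.

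Of the cytoskeleton and adhesion list, 26 rows had enough reads, with 2 wholly lower, 4 wholly higher and 20 overlapping, against 24.6% lower and 14.7% higher over all rows. The 2034-base exon of ank2b, an ankyrin gene, overlapped, at 1, 0.797 and 0.925 in mutants and 1, 0.912 and 1 in wild type. The neuron and synapse list had 4 such rows. The 423-base exon of ncam1a, a neural cell adhesion gene, was at 0.828, 0.836 and 0.947 in mutants, against 0.816, 0.778 and 0.687 in wild type, and the 168-base exon of aplp2 was at 0.825, 0.896 and 0.723 in mutants, against 1, 0.912 and 0.922 in wild type. Neither was called by limma (adjusted p = 0.229 and 0.184), and the exons of ncam1b and appb overlapped between groups, with differences of -8.37 and 4.57 points. The lens and eye list had 5 rows in 5 genes. Only pax6a and celf1 had enough reads, and both overlapped between groups. The 72-base exon of pax6a, a transcription factor gene of the eye, was at 0.381, 0.249 and 0.296 in mutants and 0.168, 0.096 and 0.258 in wild type. The exons of pax6b and tdrd7a had 7 and 0 reads in their poorest libraries and are not read further.

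The expression of the host genes was tested with edgeR's quasi-likelihood test over all genes with Benjamini-Hochberg adjustment. Of 770 tested host genes of in-frame exons, 90 were called, which is 11.7%, against 14.2% of all 16489 genes. Of the 90, 58 fell and 32 rose, where all genes were called lower at 7.48% and higher at 6.71%. Without mutant replicate 2 the count was 237, or 30.8% of hosts against 29.3% of all genes. Without wild-type replicate 1 or wild-type replicate 3 it was 58, or 7.53% of hosts against 8.39% and 8.29% of all genes. With no filter on low values it was 14.5% of hosts against 12.2% of all genes, so the order of the shares depended on the setting. The in-frame rows of the 32 risen genes were lower in 18 and higher in 23. Those of the 58 fallen genes were lower in 34 and higher in 41. These counts had no read minimum, and 54.1% of all in-frame rows were lower.

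The largest rise among hosts was in ENSDARG00000094518, at 8.79 ± 3.77 FPKM in mutants and 0.577 ± 0.0751 FPKM in wild type (SD, n = 3 each). Its log2 change was 3.95, with an SE of 0.29. Next were si:ch211-270c19.2, hrsp12, cmn and zgc:112265, with log2 changes between 0.93 and 1.17. The largest falls were zgc:100832 (-2.62), ddx4 (-2.42), CABZ01055522.1 (-1.98), thrb (-1.87) and znf384l (-1.54) on the log2 scale. Ddx4 encodes a germ cell RNA helicase and thrb a thyroid hormone receptor. Hrsp12, whose 99-base exon was at 0.992, 0.989 and 0.981 in mutants, against 0.870, 0.866 and 0.913 in wild type, was at 74.6 ± 6.14 FPKM in mutants and 39.3 ± 3.62 FPKM in wild type (SD, n = 3 each).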

How the data were processed

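The authors deposited a skipped-exon sheet with inclusion and skipping read counts, inclusion levels, p-values and FDR per event. The tool behind it is not named in the sources used. They also deposited a gene table with whole-number counts and FPKM. The tools listed, without role, are HISAT2 2.0.1, cutadapt, DESeq2, HTSeq 0.6.1 and bcl2fastq 2.17.1.14, with the build GRCz11, per the submitters' processing notes. The labels give 100 bp paired ends. The earlier of the groups in the comparison's name was read as wild type. Where 3 counts were merged in a cell, they were parted by the deposited levels (tolerance 0.00051), and 16 in-frame rows could not be parted. Levels, clipped to between 0.01 and 0.99, were tested on the logit scale with limma 3.58.1 in rows with 20 reads in every library. Genes averaging 0.5 FPKM or more had their counts tested with edgeR 4.0.16 (TMM, R 4.3.3). Both tests were two-sided and adjusted over the whole table. On simulated levels (687 rows), 45 of 66 rows shifted by 2 logits, 4 of 67 shifted by 1 and 1 of 487 unchanged rows were called. The simulation had a spread between libraries that was set by hand and means kept off the ends of the scale. Its shares hold for that setting only. With 3 libraries against 3, an exact permutation test cannot go below 0.1, so none was used. Every pair of replicates differed by more than sampling error, with a per-gene chi-square of 3.63 to 23.5.

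The exons and gene lists were chosen with earlier results of these data known. Exons named were the 10 largest decreases and increases with 20 reads and separate groups, up to 4 exons per list by read support, the 5 shortest and 3 longest, the 5 hosts with the largest rise and fall, and the 5 genes with the most rows. Others are named as examples of a stated count and were chosen after their values were seen. Ties among the shortest exons were broken by the order of the sheet, from the lowest difference up. Trappc13 is named because its exon was in that tie. No genome sequence was used here, so no sequence or motif is reported. The remaining exon among the 10 largest increases is not reported here.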

Additional observations from a re-analysis of the deposited data

How the results depend on the processing

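The count of called in-frame exons was 24, and it became 41 with no read minimum, 11 with levels clipped at 0.05, 7 without transformation and 0 with the quasi-binomial model. Leaving out 1 level at a time gave between 10 and 26. In-frame exons with separate groups numbered 146, against 92 with 50 reads in every library and 237 with no read minimum. Leaving out 1 level gave between 181 and 196, but that step can only keep or raise the count, since fewer levels are left to overlap. In-frame rows lower in the mutant numbered 598, against 358 with a change of at least 0.1 and 219 with 20 reads, while the share that was lower stayed between 52.1% and 56.6% in every setting tried. Host genes called numbered 90, against 148 with the replicate block (19.2% of hosts, against 20.5% of all genes), and between 58 and 237 without 1 library. The 237 came without mutant replicate 2 (30.8%, against 29.3%) and the 58 without wild-type replicate 1 or replicate 3. The share of hosts also passed that of all genes with no filter on low values (14.5%, against 12.2%). The cause was not tested. The check used did not settle whether replicate numbers pair the libraries, and the main gene test used no pairing. The correlations were 0.19, 0.32 and 0.052, and 4 of 6 libraries were closest to their own number. Levels carry no library number, so no paired analysis of inclusion was possible. Settings that leave out the chromosome of rbm24a were chosen after seeing the data. For the group separation, counting 1 row per exon, parting merged cells most evenly and leaving out a level were also chosen after seeing the data. No named exon or host gene reversed direction with a call. Over the alternative settings, named exons lost a call 61 times and gained a call 5 times. Named host genes lost a call 23 times and gained a call 14 times. The outcome was the same 556 times for exons and 691 times for host genes, which includes those not called either way. Searches for motifs beside the exons were not run. Depth is a limit, since 387 of 1105 rows were shown to reach 20 reads in every library. With merged cells parted most evenly, 403 rows would reach it.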
